A study of Mus musculus with 9 samples.

Results

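The genes of IL-4, IL-10 and IL-13 and of the receptor chains that bind them were followed in cultures of RAW264.7, a transformed macrophage-like line of the mouse. The set was chosen by gene symbol and holds 9 of the 43629 genes listed: the cytokines Il4, Il10 and Il13, and the receptor chains Il4ra, Il13ra1, Il13ra2, Il10ra, Il10rb and Il2rg. RNA-seq was available for 9 libraries in 3 groups of 3: LPS+NaBu (cells given sodium butyrate, the salt of a fatty acid that gut bacteria make and an inhibitor of histone deacetylases, before the bacterial endotoxin lipopolysaccharide), LPS (lipopolysaccharide alone) and Control (neither agent). All groups are of the same line; the labels name no engineered allele and give neither dose nor time. A group with NaBu but no LPS was not analysed here, so what NaBu does to these genes in unstimulated cells is not shown. The replicates are described as biological, without saying whether they were separate cultures; the error behind each p-value is that between libraries and may be technical in part.

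IL-4 and IL-13 are type 2 cytokines that push macrophages towards alternative activation and act through shared receptor chains. IL-4 binds IL-4Rα (Il4ra), which pairs with the common γ chain (Il2rg) in the type I receptor or with IL-13Rα1 (Il13ra1) in the type II receptor, and the type II receptor also takes IL-13. Both receptors signal through JAK kinases to STAT6, whereas IL-13Rα2 (Il13ra2) holds IL-13 with high affinity, has a short tail and is best known as a decoy. IL-10 restrains inflammatory macrophages through a receptor of IL-10Rα (Il10ra) and IL-10Rβ (Il10rb), which uses JAK1, TYK2 and STAT3.

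The values are normalised counts, that is, read counts per gene after division by the size factor of the library, and not by gene length. A gene was tested when it reached 10 normalised counts in at least 3 libraries, which 14808 genes did, and was called at an adjusted p under 0.05 in limma. Among the members, 7 of 9 passed; Il10 and Il13 had too few reads. The libraries held between 37.6 M and 64.4 M reads.

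With LPS+NaBu against LPS, 6 of the 7 tested members were called: Il4 and Il4ra rose, while Il13ra1, Il13ra2, Il10rb and Il2rg fell. Among all genes tested, 78.1% were called in this comparison, with 5956 higher and 5602 lower. With LPS+NaBu against Control, Il4, Il4ra and Il10ra rose, Il13ra2 and Il10rb fell, and Il13ra1 and Il2rg were not called, beside a background of 76.1% of genes called. With LPS against Control, each of the 7 was called, beside a background of 56.1%: Il4ra, Il13ra1, Il13ra2, Il10ra, Il10rb and Il2rg rose and Il4 fell. So many genes were called that the share of members called is not a result about the members, and the sizes and directions given below carry the description. The comparisons share libraries and are not independent of each other. The median log2 change of the 7 tested members was -1.05 for LPS+NaBu against LPS (0.02 over all genes tested), 0.09 for LPS+NaBu against Control (0.09 over all genes) and 1.48 for LPS against Control (-0.05 over all genes). Scaling all libraries to an equal sum moved the median of all genes by 0.27 for LPS+NaBu against LPS, by 0.05 for LPS+NaBu against Control and by -0.22 for LPS against Control. The share of calls that were higher then became 64.2% in place of 51.5% for LPS+NaBu against LPS, and 24.3% in place of 45.0% for LPS against Control.

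**Figure D1:**
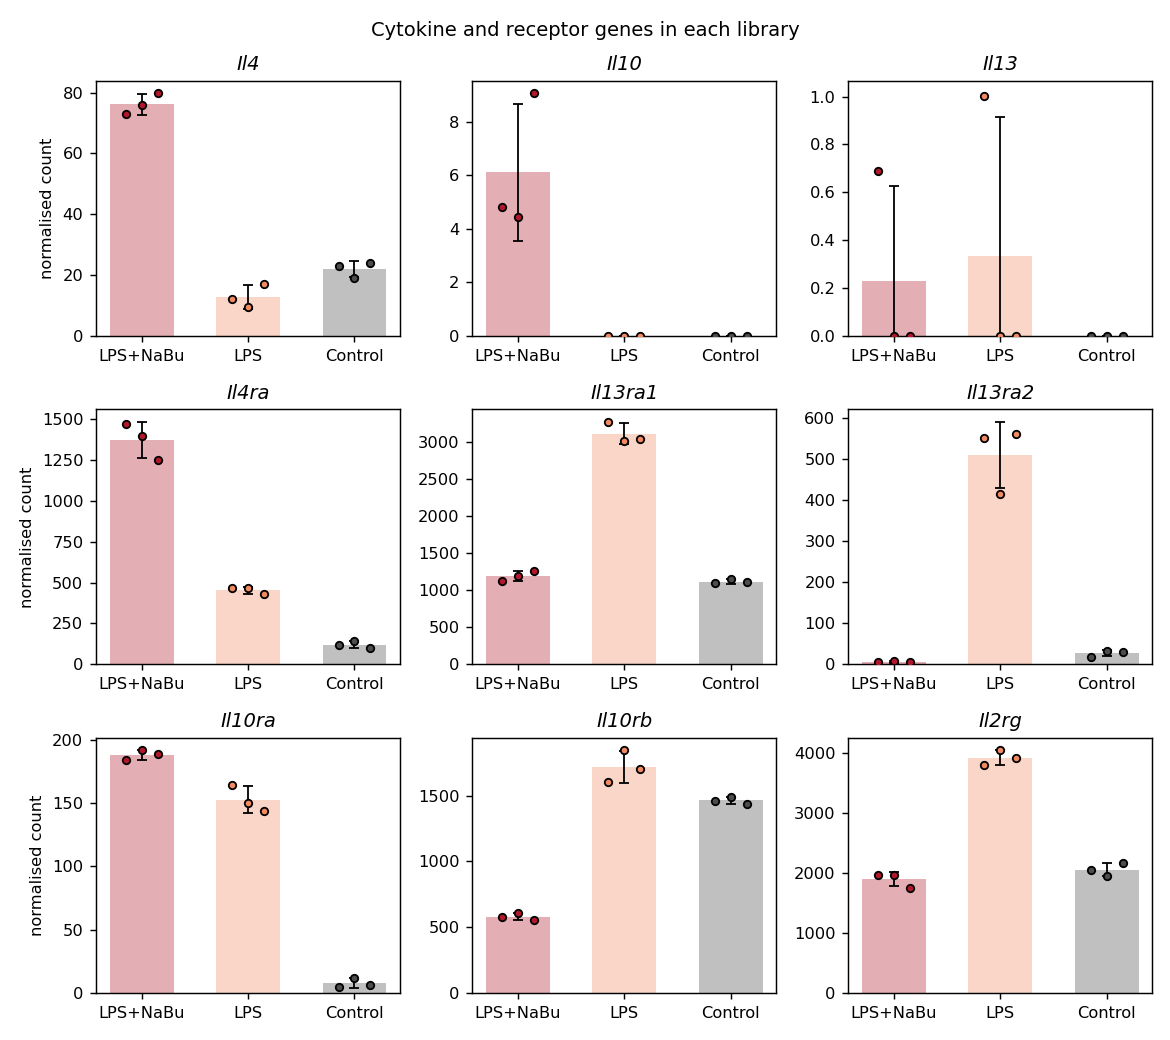
Normalised counts (vertical axes, linear and starting at 0) of the 9 genes in LPS+NaBu, LPS and Control libraries; points are libraries, bars are means and whiskers are SD (n = 3). Il4ra was highest in LPS+NaBu, at 1249 to 1468, against 429 to 467 in LPS and 101 to 141 in Control, whereas Il13ra2 was highest in LPS.

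Receptor promoters are shown for Il4ra and Il13ra2, the receptor chains with the largest rise and the largest fall with LPS+NaBu against LPS. RefSeq windows on GRCm38.p6, 250 bases before to 50 after the start, were found for 6 of the 9 members (Il4, Il13, Il4ra, Il13ra1, Il13ra2 and Il2rg). The Il4ra window is chr7:125552021-125552320 on the plus strand and the Il13ra2 window is chrX:147429143-147429442 on the minus strand. Capitals mark the only match to a κB element in the Il4ra window and the only match to the AP-1 motif in the Il13ra2 window.
Il4ra: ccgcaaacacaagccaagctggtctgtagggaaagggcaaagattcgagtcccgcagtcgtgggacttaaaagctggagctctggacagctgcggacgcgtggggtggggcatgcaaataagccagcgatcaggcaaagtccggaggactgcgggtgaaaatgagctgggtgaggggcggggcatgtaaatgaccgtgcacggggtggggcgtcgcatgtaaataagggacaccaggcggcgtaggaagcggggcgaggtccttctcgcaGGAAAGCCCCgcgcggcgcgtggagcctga
Il13ra2: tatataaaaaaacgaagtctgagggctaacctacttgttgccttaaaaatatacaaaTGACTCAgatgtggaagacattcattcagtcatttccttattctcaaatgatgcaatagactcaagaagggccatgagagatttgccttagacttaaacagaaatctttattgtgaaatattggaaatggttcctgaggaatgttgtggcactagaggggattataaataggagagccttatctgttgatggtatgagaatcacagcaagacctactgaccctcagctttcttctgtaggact
Both strands were searched for 6 motifs: κB, AP-1 (TGANTCA), the STAT motifs TTCNNNGAA and TTCNNNNGAA, the interferon response core GAAANNGAAA and the TATA motif TATAAA. The κB element occurred in 8.46% and AP-1 in 7.81% of all 32851 promoter windows. The Il13ra2 window also held TATAAA, its nearest match starting 31 bases before the start; 13.6% of all windows held that motif. The STAT motifs and the interferon response core were in neither window. A match in these letters is a description and not a bound site.

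Among Il4, Il10 and Il13, Il4 had the most reads, and it was highest after LPS+NaBu. Its normalised counts were 72.9, 75.8 and 79.8 in LPS+NaBu libraries, against 12.0, 9.39 and 16.9 in LPS libraries and 23.1, 19.0 and 24.1 in Control libraries. The groups did not overlap, although the levels rest on few reads: 262 in LPS+NaBu, 32 in LPS and 72 in Control over 3 libraries each. In bulk RNA, a change in the number of cells that make a transcript and a change in transcript per cell cannot be told apart. Il4 rose with LPS+NaBu against LPS by 2.52 ± 0.28 on the log2 scale (SE, limma adjusted p = 1.99e-06), a 5.96-fold ratio of means, and with LPS+NaBu against Control by 1.75 ± 0.28 (adjusted p = 6.93e-05). These rises were 1.89 against LPS and 1.03 against Control under quantile normalisation, and 1.93 against LPS with a pseudocount of 10. With LPS against Control it fell by 0.77 ± 0.28 (adjusted p = 0.0303), a call that was lost in 11 of 21 alternative settings, among them edgeR, DESeq2 and leaving out any single library other than LPS 3 or Control 2 (adjusted p over all alternatives 0.00689 to 0.106).

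Il4 lies on chromosome 11 from 53493809 to 53509496 on the minus strand (GRCm39, GENCODE M39), and its annotated exons meet those of Kif3a, a kinesin motor gene on the opposite strand. Kif3a runs from 53458168 to 53495071, and the genes share 179 exon bases (53493809 to 53493987), which are 14.6% of the 1227 exon bases of Il4. The sources do not state whether counting used strand, and without strand, reads from Il4 and from Kif3a cannot be told apart in the shared stretch. Kif3a had 4850, 5127 and 4836 normalised counts in LPS+NaBu libraries, against 746, 871 and 780 in LPS libraries and 1147, 1222 and 1087 in Control libraries. This is the order of groups that Il4 showed. Kif3a rose with LPS+NaBu against LPS by 2.63 ± 0.07 (adjusted p = 1.22e-12) and against Control by 2.10 ± 0.07 (adjusted p = 1.00e-11), and fell by 0.53 ± 0.07 with LPS against Control (adjusted p = 1.90e-05). Il4 reads came to 1.54 ± 0.09% of Kif3a reads in LPS+NaBu, 1.62 ± 0.55% in LPS and 1.93 ± 0.34% in Control (SD, n = 3 each). The ranges overlapped, at 1.48% to 1.65% in LPS+NaBu, 1.08% to 2.17% in LPS and 1.55% to 2.22% in Control. In 3 comparisons of these percentages, exact two-sided permutation tests gave p = 0.8 for LPS+NaBu against LPS, p = 0.2 for LPS+NaBu against Control and p = 0.6 for LPS against Control (adjusted p = 0.8, 0.6 and 0.8), where the smallest p that 3 against 3 libraries allow is 0.1. The part of Kif3a reads in the Il4 values was not tested.

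**Figure D2:**
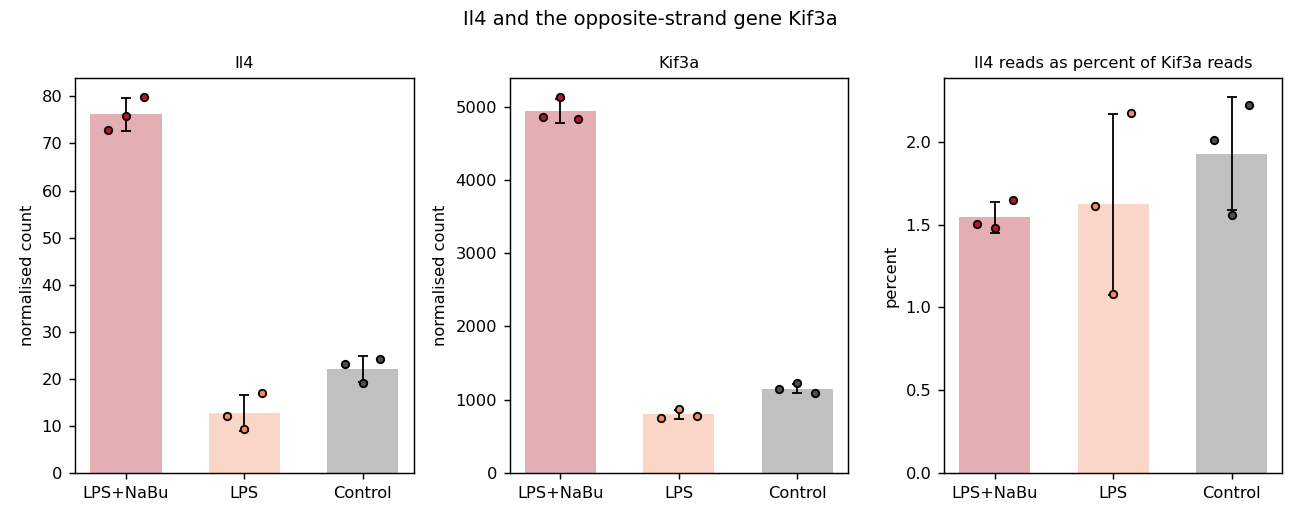
Normalised counts of Il4 and of Kif3a (linear axes) and Il4 reads as a percent of Kif3a reads, in LPS+NaBu, LPS and Control; points are libraries, bars means, whiskers SD (n = 3). Both genes were highest in LPS+NaBu and lowest in LPS, and the percentage lay between 1.08% and 2.22% in every library.

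Il10, the gene of the main anti-inflammatory cytokine of macrophages, had reads only in LPS+NaBu libraries, at the edge of detection. It lies on chromosome 1 from 130947581 to 130952711. Its reads were 7, 4 and 10 in LPS+NaBu libraries (4.81, 4.46 and 9.07 normalised counts), against 0 in each LPS and each Control library. A count of 0 allows up to 3 reads, or 3.01 to 4.24 normalised counts in LPS libraries and 2.39 to 3.02 in Control libraries. At a floor of 3 reads per library, the mean of 6.12 ± 2.57 in LPS+NaBu (SD, n = 3) was at least 1.70-fold higher than in LPS and at least 2.18-fold higher than in Control. Such bounds allow only for counting error in the groups at 0. They do not allow for that of the 21 reads in LPS+NaBu or for the spread between libraries. Il10 stayed below the minimum for the test, and no p is given, since every library of the other groups was at 0.

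Il13 had 1 read over the LPS+NaBu libraries, 1 over the LPS libraries and 0 over the Control libraries. No fold was computed, since no group rose above the floor of 3 reads per library (up to 4.24 normalised counts). The gene lies on chromosome 11 from 53522151 to 53525529, next to Il4.

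Il4ra, the chain that both IL-4 receptors share, was highest after LPS+NaBu, lower after LPS and lowest in Control. It had 1468, 1395 and 1249 normalised counts in LPS+NaBu libraries, against 465, 467 and 429 in LPS libraries and 120, 141 and 101 in Control libraries. No library of a group overlapped with another group. Il4ra rose with LPS+NaBu against LPS by 1.59 ± 0.12 on the log2 scale (SE, limma adjusted p = 4.31e-08), a 3.02-fold ratio of means, and with LPS+NaBu against Control by 3.51 ± 0.12 (adjusted p = 1.73e-11), an 11.4-fold ratio. With LPS against Control the rise was 1.92 ± 0.12 (adjusted p = 1.82e-08). The gene lies on chromosome 7 from 125151079 to 125182844; an antisense transcript that shares 571 of its exon bases, Gm44876, was not analysed here.

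Il13ra1, the partner of Il4ra in the type II receptor, moved the other way with NaBu. It had 1122, 1190 and 1258 normalised counts in LPS+NaBu libraries, against 3275, 3011 and 3046 in LPS libraries and 1092, 1151 and 1107 in Control libraries. The LPS libraries stood clear of the rest, while LPS+NaBu and Control overlapped. Il13ra1 fell by 1.39 ± 0.06 with LPS+NaBu against LPS (adjusted p = 1.44e-10) and rose with LPS against Control by 1.48 ± 0.06 (adjusted p = 2.21e-10). Between LPS+NaBu and Control the log2 change was 0.09 ± 0.06 (adjusted p = 0.187), with a 95% interval of 0.973-fold to 1.16-fold. It lies on the X chromosome from 35375461 to 35435331.

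Il13ra2, the decoy for IL-13, had the largest single change of the set, a fall with LPS+NaBu against LPS. It had 5.50, 8.92 and 5.44 normalised counts in LPS+NaBu libraries, against 551, 416 and 561 in LPS libraries and 19.1, 32.0 and 30.2 in Control libraries. LPS+NaBu thus lay below Control in every library. Il13ra2 fell by 6.08 ± 0.27 with LPS+NaBu against LPS (adjusted p = 2.17e-10), and only 9 of the 14808 genes tested fell further. LPS+NaBu libraries held 22 reads of it in all, against 1301 in LPS and 86 in Control. From these reads the ratio of LPS to LPS+NaBu was 79.9, with an exact 95% counting interval of 52.5 to 128. That interval allows only for counting error in the summed reads and not for the spread between libraries. Il13ra2 fell by 1.88 ± 0.27 with LPS+NaBu against Control (adjusted p = 3.21e-05) and rose with LPS against Control by 4.20 ± 0.27 (adjusted p = 2.64e-08). The size of the falls depended on the scale, at -4.96 with a pseudocount of 10 and -7.66 under quantile normalisation against LPS, and at -1.15 with a pseudocount of 10 and -3.68 under quantile normalisation against Control. It lies on the X chromosome from 146166035 to 146212188.

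Il2rg, the common γ chain used by the receptors of IL-2, IL-4, IL-7, IL-9, IL-15 and IL-21, had the highest counts of the set. It had 1972, 1974 and 1759 normalised counts in LPS+NaBu libraries, against 3797, 4052 and 3919 in LPS libraries and 2053, 1954 and 2167 in Control libraries. Like Il13ra1, it was high in LPS, and LPS+NaBu overlapped with Control. Il2rg fell by 1.05 ± 0.06 with LPS+NaBu against LPS (adjusted p = 2.44e-09) and rose with LPS against Control by 0.93 ± 0.06 (adjusted p = 2.29e-08). Between LPS+NaBu and Control the log2 change was -0.11 ± 0.06 (adjusted p = 0.0972), with a 95% interval of 0.844-fold to 1.01-fold; edgeR and TMM scaling called it lower, with adjusted p over all alternatives of 0.0126 to 0.381. It lies on the X chromosome from 100307984 to 100311861.

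Il10ra, the IL-10 binding chain, was near the floor in Control and high in both treated groups. It had 184, 192 and 189 normalised counts in LPS+NaBu libraries, against 164, 150.2 and 144 in LPS libraries and 4.77, 12.0 and 6.04 in Control libraries. All treated libraries stood clear of Control. Il10ra rose with LPS+NaBu against Control by 4.55 ± 0.27 (adjusted p = 3.81e-09) and with LPS against Control by 4.25 ± 0.27 (adjusted p = 1.98e-08), where Control held 24 reads in all; with a pseudocount of 10 these rises were 3.52 for LPS+NaBu and 3.23 for LPS, and under quantile normalisation that for LPS+NaBu was 3.87. LPS+NaBu and LPS did not overlap, but the log2 change of 0.30 ± 0.27 was not called (adjusted p = 0.320, 95% interval 0.823-fold to 1.84-fold) and turned to -0.12 under quantile normalisation. That SE and interval pool the spread of all 3 groups, Control with its few reads included. In a limma fit of only the 6 libraries compared, the change was still not called (adjusted p = 0.0531). The gene lies on chromosome 9 from 45165132 to 45180563.

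Il10rb, which IL-10 shares with IL-22 and the λ interferons, fell with NaBu below its Control level. It had 576, 611 and 555 normalised counts in LPS+NaBu libraries, against 1602, 1846 and 1702 in LPS libraries and 1458, 1492 and 1439 in Control libraries. LPS+NaBu stood far below the other groups, which lay close to each other. Il10rb fell by 1.56 ± 0.07 with LPS+NaBu against LPS (adjusted p = 1.41e-10) and fell by 1.33 ± 0.07 with LPS+NaBu against Control (adjusted p = 7.55e-10). The rise with LPS against Control was 0.23 ± 0.07 (adjusted p = 0.0109), and was lost on scaling to equal library sums (adjusted p = 0.993). The gene lies on chromosome 16 from 91203012 to 91224600, and Gm21970, annotated on the same strand over 1712 of its 6140 exon bases, had 0 reads in every library.

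**Figure D3:**
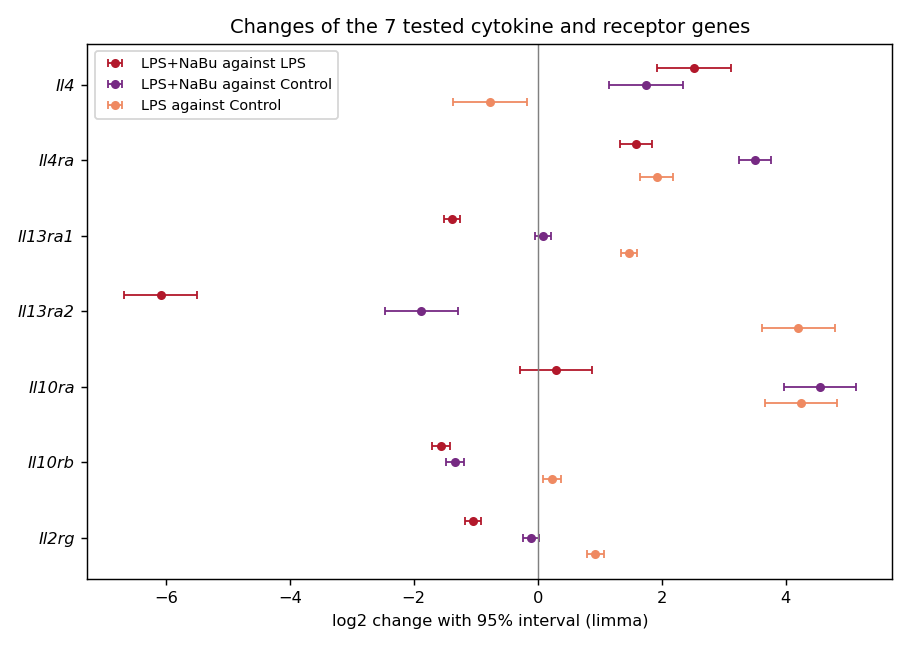
Log2 changes (horizontal axis) of the 7 tested genes with their 95% intervals from limma, for LPS+NaBu against LPS, LPS+NaBu against Control and LPS against Control. Il13ra2 had the widest spread of changes, from -6.08 to 4.20, and only Il4 and Il4ra lay right of 0 with intervals clear of it for LPS+NaBu against LPS.

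Levels were compared between genes per kilobase (kb) of exons, leaving out Il10 and Il13. In LPS+NaBu the order was Il2rg (797 ± 51.9 normalised counts per kb, SD, n = 3), Il13ra1 (252 ± 14.4), Il4ra (137 ± 11.2), Il10rb (94.6 ± 4.62), Il4 (62.1 ± 2.84), Il10ra (43.1 ± 0.868) and Il13ra2 (2.44 ± 0.733). In LPS it was Il2rg (1643 ± 53.5), Il13ra1 (658 ± 30.4), Il10rb (279.6 ± 20.0), Il13ra2 (187 ± 29.9), Il4ra (45.5 ± 2.13), Il10ra (35.0 ± 2.39) and Il4 (10.4 ± 3.13). No neighbours in these orders overlapped. In Control the order was Il2rg (862 ± 44.5), Il10rb (238 ± 4.36), Il13ra1 (236 ± 6.45), Il4 (18.0 ± 2.21), Il4ra (12.1 ± 2.03), Il13ra2 (9.97 ± 2.57) and Il10ra (1.74 ± 0.883), with Il10rb overlapping Il13ra1 and Il4ra overlapping Il13ra2. The chains that pair in a receptor thus stood at different distances from each other in each group. Il13ra1 per kb was 1.85 ± 0.260 times Il4ra per kb in LPS+NaBu, 14.5 ± 0.762 times in LPS and 19.9 ± 3.06 times in Control. Il2rg was 5.80 ± 0.165 times Il4ra in LPS+NaBu, 36.2 ± 2.02 times in LPS and 73.1 ± 16.1 times in Control. Il10rb was 2.20 ± 0.0901 times Il10ra in LPS+NaBu, 8.03 ± 0.964 times in LPS and 159 ± 65.3 times in Control, the last resting on 24 reads of Il10ra. None of these ratios overlapped between groups, and no test was run on them. Il13ra2 made up 0.960 ± 0.288% of the summed level per kb of Il13ra1 and Il13ra2 in LPS+NaBu, 22.1 ± 2.49% in LPS and 4.03 ± 0.937% in Control. These ratios describe transcripts, and protein at the cell surface was not measured here.

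**Figure D4:**
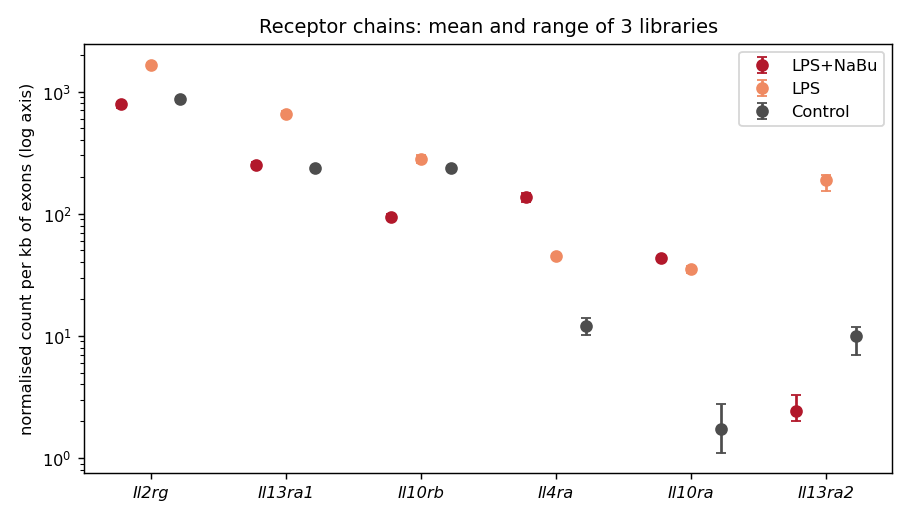
Normalised counts per kb of exons (log axis) of the 6 receptor chains in LPS+NaBu, LPS and Control; points are means and whiskers the range of 3 libraries. Il4ra at 137 per kb in LPS+NaBu stood nearer to its partner Il13ra1 at 252 than in LPS, where they were at 45.5 and 658.

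The tested genes most like each member were found by the root-mean-square (RMS) difference of centred log2 values over the 9 libraries. For Il4 they were Fmo5 (RMS 0.18), Map1a (0.19) and Tom1l2 (0.20); Kif3a, at 0.30, ranked 104 of 14807. For Il4ra they were Hrc (0.15), Agrn (0.21) and Fabp4 (0.21), and for Il13ra1 Ptpre (0.05), Alpk1 (0.08) and Jag1 (0.08). For Il13ra2 they were Gpr84 (0.46), H2-T24 (0.48) and Ifi47 (0.49), farther than for any other member. The nearest to Il10ra were Urah (0.23), Lif (0.35) and Nfkbiz (0.37). Il10rb was nearest to Pcbp1 (0.05), Cers2 (0.05) and Pced1a (0.05), and Il2rg to Zfp513 (0.04), Basp1 (0.07) and Micall1 (0.07). The likeness is of pattern over these libraries alone.

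The counts of the lists that follow were not tested against other genes; over all 14808 genes tested, 5956 rose and 5602 fell with LPS+NaBu against LPS (median 0.02), 6063 rose and 5204 fell with LPS+NaBu against Control (median 0.09), and 3739 rose and 4568 fell with LPS against Control (median -0.05). Other chains that pair with the members, and their relatives, gave 14 tested genes of 19. In LPS+NaBu relative to LPS, 6 rose and 8 fell, with a median log2 change of -0.62. The largest falls were of chains that pair with Il2rg: Il21r, the IL-21 receptor and the next gene after Il4ra (-3.78 ± 0.34, adjusted p = 2.89e-07), Il15ra (-3.07 ± 0.13, adjusted p = 9.44e-11) and Il7r (-3.01 ± 0.08, adjusted p = 1.30e-12). Il9r (1.82 ± 0.43, adjusted p = 0.00160) and Il2rb (1.11 ± 0.34, adjusted p = 0.00883), which also pair with Il2rg, rose. Chains that pair with Il2rg thus moved in both directions. The interferon receptor chain Ifnar1 rose as well (0.81 ± 0.04, adjusted p = 1.62e-09). In LPS+NaBu relative to Control, 4 rose and 7 fell (median -0.26), with Il9r (1.73), Il2rb (1.66) and Ifnar1 (1.15) rising most and the deepest falls being those of the IL-33 receptor gene Il1rl1 (-2.02), Il7r (-2.01) and Crlf2 (-0.75). In LPS relative to Control, 8 rose and 3 fell (median 0.44), led by Il21r (3.25), Il15ra (2.68) and Il20rb (1.40), while Il27ra (-0.78), Ifngr1 (-0.61) and Il6st (-0.31) fell.

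Of 15 further cytokines of the IL-10 family or of type 2 immunity, 6 were tested; Il20, Il22, Il24, Il3 and Il9 had no read in any library. Relative to LPS, in LPS+NaBu 1 rose and 5 fell (median -1.52). Tslp, an epithelial type 2 cytokine, rose by 3.55 ± 0.53 (adjusted p = 3.79e-05), to 60.7 ± 15.7 in LPS+NaBu against 4.51 ± 2.17 in LPS and 0.932 ± 1.01 in Control. Tslp passed the minimum for the test only through LPS+NaBu, so a fall could hardly have been called and the p adds little to these levels. Il1rn, which encodes the IL-1 receptor antagonist, fell by 3.16 ± 0.04 (adjusted p = 3.43e-15), as did the alarmin Il33 (-2.13 ± 0.41, adjusted p = 0.000354) and the IL-27 subunit Ebi3 (-1.60 ± 0.06, adjusted p = 5.44e-11). All 6 were called higher with LPS+NaBu against Control (median 1.78, with Tslp 5.10, Il33 4.92 and Csf2 3.13). The same 6 were called higher with LPS against Control (median 2.68, with Il33 7.05, Csf2 4.58 and Il1rn 3.60). Tslp, Il33 and Csf2 had Control means of 0.932, 0.667 and 0.335, and passed the minimum only through treated libraries. A fall of these against Control could hardly have been called, so the count of rises is not a result. Tslp stayed below the minimum in LPS as well. Ebi3 and Il1rn, with Control means of 777 and 7639, were not limited in this way.

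The kinases, STATs and brakes of the receptors gave 20 tested genes of 22. After LPS+NaBu, compared with LPS, 10 rose and 8 fell (median 0.07). Stat6, the transcription factor of IL-4 and IL-13 signalling, had 3288 ± 45.6 normalised counts in LPS+NaBu, against 8368 ± 17.1 in LPS and 8353 ± 132 in Control. Its change with LPS+NaBu against LPS was -1.35 ± 0.04 (adjusted p = 2.28e-12), whereas Stat3, the factor of IL-10 signalling, rose by 0.14 ± 0.04. The direction of Stat6 is thus opposite to that of Il4ra. Socs3, a feedback inhibitor of cytokine receptors, fell by 2.56 ± 0.05 (adjusted p = 1.38e-13), as did Stat5b (-0.95 ± 0.06). Socs2 (2.91 ± 0.62, adjusted p = 0.000797), the phosphatase gene Ptpn1 (1.77 ± 0.05, adjusted p = 2.03e-12) and Pias3 (0.79 ± 0.09) rose most. Of the receptor kinases, Jak1 (0.54) and Tyk2 (0.68) rose, while Jak2 (-0.92) and Jak3 (-0.84), the kinase that the common γ chain carries, fell. Relative to Control, in LPS+NaBu 15 rose and 5 fell (median 0.69), led by Cish (6.84), Socs2 (4.99) and Socs1 (4.15), while Stat6 (-1.34), Stat5b (-1.12) and the lipid phosphatase gene Inpp5d (-0.65) fell. With LPS against Control, 10 rose and 5 fell (median 0.13), led by Cish (6.84), Socs3 (5.93) and Socs1 (4.64), while Stat5a (-0.32), Pias3 (-0.27) and Ptpn1 (-0.23) fell.

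**Figure D5:**
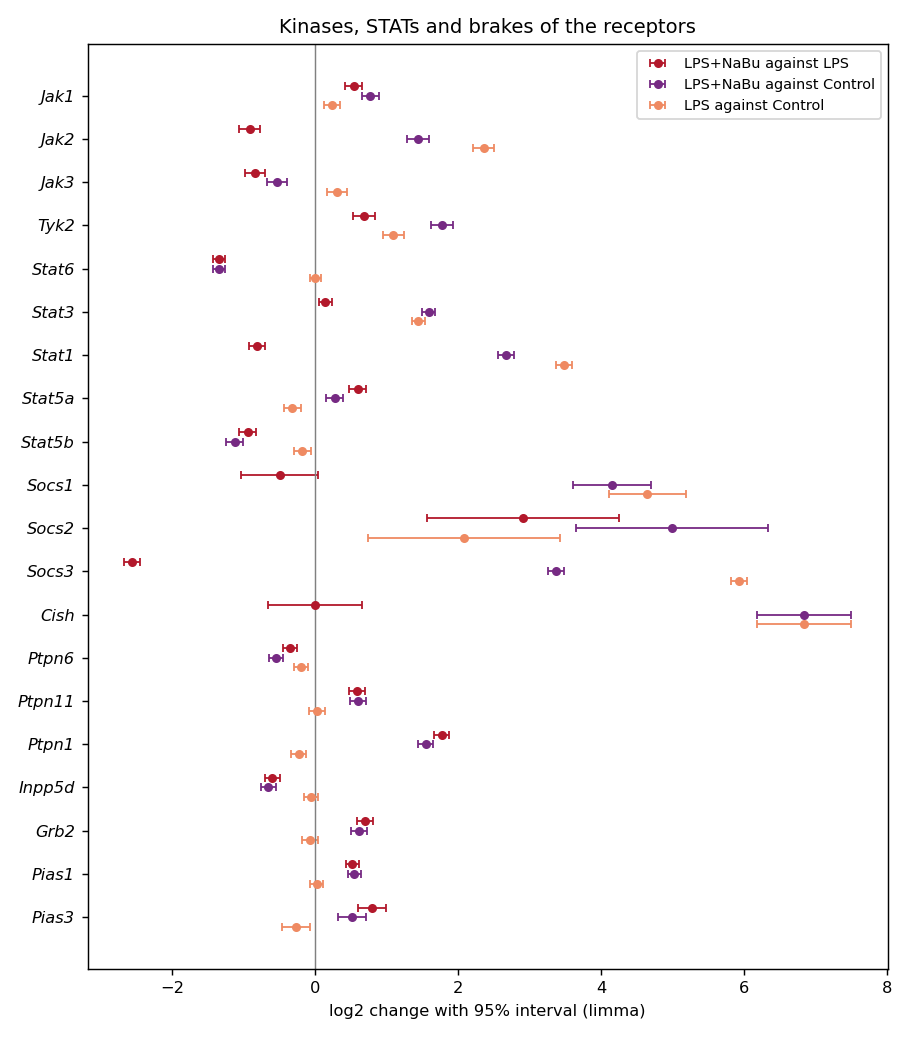
Log2 changes (horizontal axis) with 95% intervals from limma for the 20 tested kinases, STATs and brakes, in LPS+NaBu against LPS, LPS+NaBu against Control and LPS against Control. Stat6 lay at -1.35 and -1.34 in both comparisons of LPS+NaBu and at 0.00 in LPS against Control.

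Genes known to respond to IL-4 and IL-13 in mouse macrophages moved in both directions. Of 28 listed, 18 were tested, and Chil3 and Retnla, classic markers of alternative activation, had no read in any library. Arg1, another such marker, had 15.1 ± 3.19 normalised counts in LPS+NaBu, against 15.4 ± 2.35 in LPS and 9.17 ± 7.27 in Control, and was called in no comparison. With LPS+NaBu against LPS, 8 rose and 4 fell (median 0.22). Irf4, a transcription factor of the IL-4 response, rose by 3.89 ± 0.10 (adjusted p = 1.38e-12), to 2663 ± 88.6 in LPS+NaBu against 179 ± 17.8 in LPS and 207 ± 21.2 in Control. Pparg rose by 3.42 ± 0.59 (adjusted p = 0.000150), and the chemokine Ccl24, with no read in LPS, was at least 8.32-fold higher at 3 reads per library. Ccl24 could not have been called lower there, and it is counted among the rises. The falls were led by Tfec (-3.70 ± 0.12, adjusted p = 1.25e-11), Myc (-3.28 ± 0.09, adjusted p = 2.28e-12) and Tgm2 (-0.52 ± 0.07). After LPS+NaBu, compared with Control, 12 rose and 2 fell (median 1.82), led by Ccl22 (7.66), Cish (6.84) and Socs2 (4.99), while Tfec (-3.42) and Ppargc1b (-0.58) fell. Relative to Control, in LPS 8 rose and 2 fell (median 0.60), led by Cish, Ccl22 (6.81) and Myc (4.80), while Pparg (-2.15) and Ppargc1b (-0.68) fell.

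Of 16 genes known to respond to IL-10, 13 were tested, and 3 rose and 10 fell with LPS+NaBu against LPS (median -0.76). Fcgr1, an IgG receptor, fell by 4.12 ± 0.09 (adjusted p = 2.99e-13), beside Il1rn and Socs3, which the lists above also hold. Ddit4 (3.03 ± 0.14, adjusted p = 2.71e-10), Nfil3 (1.53 ± 0.07, adjusted p = 2.96e-10) and Zfp36 (0.26 ± 0.05, adjusted p = 0.000586) rose. With LPS+NaBu against Control, 9 rose and 3 fell (median 0.43), led by Zfp36 (3.87), Socs3 (3.37) and Ddit4 (2.58), while Bcl3 (-0.57), Fcgr1 (-0.41) and Tnip3 (-0.26) fell. With LPS against Control, 11 rose and 2 fell (median 1.06), led by Socs3 (5.93), Fcgr1 (3.71) and Zfp36 (3.61), while Ddit4 (-0.46) and Nfil3 (-0.20) fell.

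Regulators of Il10 and of the Il4-Il13 locus gave 30 tested genes of 32. In LPS+NaBu relative to LPS, 15 rose and 12 fell (median 0.46). The rises count Prdm1 and Ets1, described next, which could hardly have been called lower. Prdm1, which encodes the repressor Blimp-1, had 52.4 ± 1.11 normalised counts in LPS+NaBu and no read in LPS or Control, and so was at least 14.6-fold higher than in LPS and at least 18.7-fold higher than in Control at 3 reads per library. Ets1 rose by 5.28 ± 0.69 (adjusted p = 1.11e-05), with a level near the floor in LPS and a similar rise against Control (5.06 ± 0.69). A fall of Ets1 could hardly have been called in either comparison, so the p adds little. Hdac11, a deacetylase known to repress Il10, had 370 ± 17.6 in LPS+NaBu, against 13.8 ± 3.20 in LPS and 54.7 ± 15.1 in Control. The lymphoid factor gene Ikzf1 fell by 2.40 ± 0.07 (adjusted p = 2.99e-12), as did Nfkb1 (-1.97 ± 0.04, adjusted p = 1.61e-13) and Bhlhe41 (-1.91 ± 0.04, adjusted p = 2.06e-13). In LPS+NaBu relative to Control, 18 rose and 8 fell (median 0.71), and the rises again count Prdm1 and Ets1. Ets1 (5.06) and Dusp1 (4.23) rose, while Ikzf1 (-2.01), Bhlhe41 (-1.51) and Atf1 (-1.49) fell. After LPS alone, compared with Control, 14 rose and 7 fell (median 0.10), led by Dusp1 (2.34), Nfkb1 (2.18) and Junb (2.02), while Hdac11 (-1.90), Bhlhe40 (-1.07) and Rps6ka5 (-0.91) fell. Maf, a known activator of Il10, had no read in any library.

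The 3 nearest protein-coding genes on each side of each member gave 22 tested genes of 49. Relative to LPS, in LPS+NaBu 9 rose and 12 fell (median -0.35); Kif3a, Tmem50b (1.37) and D430042O09Rik (1.34) rose most, and Il21r (-3.78), Kdm8 (-2.32) and Mapkapk2 (-0.97) fell. Rad50, the gene that lies next to Il13 and holds the locus control region of the type 2 cytokines, had 1940 ± 3.96 normalised counts in LPS+NaBu, against 3282 ± 184 in LPS and 4220 ± 202 in Control, an order of groups that differs from that of Il4. Relative to Control, in LPS+NaBu 10 rose and 9 fell (median 0.01), with Irf1 (2.31), Kif3a and Ifnar1 (1.15) rising most, while Kdm8 (-2.04), Lonrf3 (-1.53) and Rad50 (-1.12) fell. In LPS compared with Control, 7 rose and 10 fell (median -0.03), led by Il21r (3.25), Irf1 (2.49) and Mapkapk2 (1.22), while Dyrk3 (-1.15), Lonrf3 (-0.70) and Tmem50b (-0.65) fell.

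Markers of macrophages, of cells that are usual sources of IL-4, and of B cells and fibroblasts were read beside these results. Of 10 macrophage markers, 9 were found by symbol and all were expressed, with sums of 214108 to 231983 normalised counts in LPS+NaBu, 643815 to 680574 in LPS and 471407 to 488957 in Control; 8 of them fell and 1 rose with LPS+NaBu against LPS. Of 8 mast cell and basophil markers, 6 (Fcer1a, Ms4a2, Cpa3, Mcpt8, Prss34 and Kit) had no read in any library, and the list summed to at most 1.12 in LPS+NaBu, 0 in LPS and 2.01 in Control. The 8 T-cell markers summed to 7.81 to 32.3 in LPS+NaBu, 8.47 to 11.7 in LPS and 8.0 to 15.1 in Control, with Cd28 at 0 throughout; Cd4, the only tested one, was called higher with LPS+NaBu against Control (log2 change 1.21, adjusted p = 0.0472). The 4 eosinophil markers summed to 19.0 to 33.0 in LPS+NaBu, 2.82 to 22.1 in LPS and 4.0 to 12.1 in Control. Ccr3, the only tested one, was called higher with LPS+NaBu against Control (log2 change 2.59, adjusted p = 0.0246). Its Control mean was 1.67, and it passed the minimum for the test only through treated libraries. A fall of Ccr3 against Control could hardly have been called, so the p adds little. The B-cell list of 5 summed to 46.3 to 56.4 in LPS+NaBu, 74.9 to 104 in LPS and 5.57 to 20.0 in Control, with Ms4a1 at 0 throughout. Its members moved apart with LPS+NaBu against LPS: Cd79a (log2 change 2.07) and Cd79b (3.40) rose, while Pax5, with a mean of 5.92 in LPS+NaBu against 86.3 in LPS, fell. All 3 were called higher with LPS+NaBu against Control, but from levels near the floor. Pax5, at 5.50, 12.3 and 0 in LPS+NaBu libraries against 0 in each Control library, overlapped between these groups and passed the minimum through LPS. Cd79a and Cd79b passed the minimum only through LPS+NaBu, so for them a fall could hardly have been called in either comparison. The list for type 2 innate lymphoid cells, whose Gata3, Il1rl1 and Il7r the line also expresses, summed to 1473 to 1633 in LPS+NaBu, 7670 to 8365 in LPS and 5056 to 5358 in Control, with Klrg1 at 0. Gata3, Il1rl1 and Il7r fell in both comparisons of LPS+NaBu, whereas Rora rose by 3.23 against LPS (adjusted p = 7.24e-07) and by 2.16 against Control (adjusted p = 3.77e-05). The 4 fibroblast markers all rose with LPS+NaBu against LPS and against Control, and summed to 267 to 293 in LPS+NaBu, 9.02 to 16.4 in LPS and 6.36 to 12.1 in Control. Each of them stayed below 10 in every LPS and Control library, and so passed the minimum for the test only through LPS+NaBu. A marker that enters in this way could hardly be called lower, and the count of rises is not a result. The part of the marker lists that moved in the changes of the members was not tested.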

How the data were processed

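RNA-seq of RAW264.7 cells was analysed in 9 libraries, 3 each of LPS+NaBu, LPS and Control, grouped by the labels. The authors' deposited signal, named FPKM in the files, is gene counts divided by 1 size factor per library: every value divided by that of a single read gave a whole number (100%, tolerance 0.001), and 1 divided by that step equalled the DESeq2 size factor. In 3 libraries the step lies within 1% of 1, where this says little. The study's methods name Trimmomatic, HISAT2 and featureCounts on uniquely mapped reads of a directional kit, whereas STAR 2.7.7a with DESeq2 on mm39 stands in the processing notes that the submitters gave, so the aligner is open; the strand setting is not stated in either source. The signal is not divided by gene length; levels per kb divide it by the exon length in GENCODE M39 (GRCm39), to which 38984 of 43629 identifiers matched.

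The two-sided test was that of limma 3.58.1 (R 4.3.3) on log2 of the normalised count plus 1, fitting 3 group means to the 9 libraries with the trend option. Adjustment was by Benjamini-Hochberg over the 14808 genes that reached 10 in at least 3 libraries. Changes on this scale are understated for low genes. Alternatives were other pseudocounts, filters and scalings, edgeR 4.0.16 and DESeq2 1.42.0 on the recovered reads, a replicate block and leaving out each library. The test was checked on simulated data. The members and gene lists were chosen with earlier results of these data known. Named are all members, up to 3 called genes with the largest rise and fall per list and comparison, kinases and STATs of the receptors, and the 3 most similar genes per member; Arg1, Chil3, Retnla, Hdac11, Maf, Rad50 and the cytokines without reads were added after their values were seen. The lists were counted in the limma test alone. A gene that this rule names is not reported here. Counting intervals are exact binomial at 95% on reads summed over the libraries of each group. Protein and chromatin data were not used here.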

Additional observations from a re-analysis of the deposited data

How the results depend on the processing

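Over 21 alternatives, 426 of 441 changes of the members kept their direction and their side of the threshold, 12 were no longer called, 2 became called and 1 reversed. Those that were no longer called were 11 values of Il4 and 1 of Il10rb, all for LPS against Control; those that became called were of Il2rg for LPS+NaBu against Control. The reversal was Il10ra for LPS+NaBu against LPS, at -0.12 under quantile normalisation; the cause was not tested. Genes called on recovered reads numbered 11621 with edgeR and 11502 with DESeq2 for LPS+NaBu against LPS, against 11558 with limma. Leaving out each library gave 6 to 6 members and 10610 to 11498 genes called for LPS+NaBu against LPS, 5 to 5 and 10261 to 11433 for LPS+NaBu against Control, and 6 to 7 and 7520 to 8343 for LPS against Control. A replicate block gave 11464, 11124 and 7977 genes called for these comparisons and changed no call of a member. Same-numbered libraries did not deviate together (correlations -0.04 to 0.02 over 9 pairs, -0.07 to 0.08 over 18 others). With 3 libraries per group this cannot show whether they share a culture or a batch, and the main test used the numbers only as names. A fit of edgeR with no filter, added for Il10 and Il13 after seeing the data, is not reported, since it sets Il10 against libraries at 0. Depth limits Il10, Il13, Il4 in LPS and Il13ra2 in LPS+NaBu.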
